A study of Mus musculus with 24 samples.

Results

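Homeostatic chemokines are small secreted or membrane-bound proteins that tissues make without an inflammatory stimulus, and 5 of them with a known place in the nervous system were followed here: Cx3cl1, Cxcl12, Cxcl13, Cxcl14 and Cxcl16. Their members on the array were all probe sets whose platform symbol was exactly one of these names. This gave 13 of the 45037 non-control probe sets, and 5 of 18193 genes with a symbol. The chemokines were set beside 16 inducible chemokines, the class that inflammatory cytokines switch on, and 7 receptors and shedding proteases of the homeostatic class. RNA of embryonic mouse cortical neurons was measured on 24 one-colour arrays, 3 in each of 8 groups. All neurons, controls included, came from Il1rap-/- mice, kept in serum-free Neurobasal medium with B-27 supplement, and were made to express AcP, AcPb, both (AcP+AcPb), or CD25. In each of these 4 arms the cells were exposed for 4 h to 10 ng/ml IL-1b or to the control stimulus. AcP is the co-receptor that the IL-1 receptor needs to signal, AcPb is a variant made from the same gene, Il1rap, and CD25 is a subunit of the IL-2 receptor. The embryonic age of the neurons, and how they were made to express these proteins, are not given in the sources used here.

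In the nervous system homeostatic chemokines carry signals between neurons, glia and blood-borne cells. Cx3cl1 and Cxcl16 are made as membrane-anchored proteins that the proteases Adam10 and Adam17 can cut free, whereas Cxcl12, Cxcl13 and Cxcl14 are secreted. Cxcl12, made largely by the meninges in the developing cortex, guides migrating interneurons and Cajal-Retzius cells through its receptors Cxcr4 and Ackr3, and neuronal Cx3cl1 signals to Cx3cr1 on microglia.

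The cultures had the RNA of neurons: all 10 neuron markers, such as Map2 and Tubb3, lay above the array median in every group, as did 9 of 10 astrocyte markers. Of 8 oligodendrocyte lineage markers on the array, 6 or 7 did so in each group. Of 10 mural and fibroblast markers, 7 or 8 did so in the CD25 groups and 4 to 6 in the others. Of 13 microglia markers only 2 did so, and the group means of Aif1, C1qa, C1qc and Tmem119 were at or below 0 in all groups. Endothelial markers were likewise low, with 1 of 9 above the array median and Pecam1 and Tie1 at or below 0 throughout. The array medians ran from 55.06 to 66.45 intensity units, between 16.4% and 18.2% of an array's values were below 0, and no array was set aside. The deleted gene could not serve as a check of the labels, since no source used here says whether its probes match the deleted or the introduced sequence: the brightest Il1rap probe set (1442614_at) had group means of 110.8 to 135.8, and a probe set of Il2ra, which encodes CD25, 19.2 to 37.7 (1420691_at). All AcP, AcPb and CD25 arrays carry the array code 21B in the labels, whereas 2 AcP+AcPb controls carry 22B and the third, with all 3 AcP+AcPb arrays with IL-1b, 23B. What the code stands for is not stated. In each comparison of AcP+AcPb with another arm at the same stimulus, the arm and the code thus cannot be told apart. Within the AcP+AcPb arm the code also differs between 2 controls and the IL-1b arrays. Stimulus and code are thus partly mixed in that response and in the response differences that use it. Separate cultures are not named for the 3 arrays of a group, so p-values reflect the spread among arrays that may be technical replicates.

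The sequences just upstream of 4 genes are shown to set the bright and uncalled Cx3cl1 and Cxcl12 beside Cxcl1 and Cxcl10, the inducible chemokines with the largest rises in AcP neurons. Each is the stretch of 250 bases before the RefSeq start of the gene, on the gene's strand (build GRCm38.p6). The genes themselves lie at chr8:94772180-94782427 (Cx3cl1), chr6:117168535-117181368 (Cxcl12), chr5:95956939-95961068 (Cxcl13), chr13:56288643-56296811 (Cxcl14) and chr11:70454389-70459984 (Cxcl16). RefSeq gave such a sequence for 4 of the 5 homeostatic genes, all but Cxcl16, and for 9 of the 16 inducible ones. The Cxcl14 stretch (chr13:56296552-56296801, minus strand) lies inside the gene span given above, so it is not upstream of that span. In Cx3cl1 (chr8:94771930-94772179, plus strand) and Cxcl12 (chr6:117168285-117168534, plus strand), capitals mark the GC box letters GGGCGG on either strand. In Cxcl1 (chr5:90890995-90891244, plus strand) and Cxcl10 (chr5:92348890-92349139, minus strand), capitals mark the NF-kB letters (GGG, any 3 bases, T, any 1 base, CC) on either strand, and overlapping matches run together.
Cx3cl1: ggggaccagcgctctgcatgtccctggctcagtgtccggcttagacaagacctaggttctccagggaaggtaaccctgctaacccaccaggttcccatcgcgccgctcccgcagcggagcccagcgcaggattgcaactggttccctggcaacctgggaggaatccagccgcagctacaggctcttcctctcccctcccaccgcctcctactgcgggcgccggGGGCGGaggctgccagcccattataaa
Cxcl12: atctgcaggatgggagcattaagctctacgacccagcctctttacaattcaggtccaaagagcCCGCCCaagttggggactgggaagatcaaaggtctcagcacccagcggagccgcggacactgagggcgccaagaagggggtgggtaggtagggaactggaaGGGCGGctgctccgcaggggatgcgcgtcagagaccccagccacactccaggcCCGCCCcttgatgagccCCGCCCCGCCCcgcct
Cxcl1: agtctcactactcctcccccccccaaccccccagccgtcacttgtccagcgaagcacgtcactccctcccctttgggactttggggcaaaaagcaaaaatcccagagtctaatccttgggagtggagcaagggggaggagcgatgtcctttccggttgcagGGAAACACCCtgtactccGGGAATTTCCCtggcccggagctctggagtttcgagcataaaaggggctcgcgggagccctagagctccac
Cxcl10: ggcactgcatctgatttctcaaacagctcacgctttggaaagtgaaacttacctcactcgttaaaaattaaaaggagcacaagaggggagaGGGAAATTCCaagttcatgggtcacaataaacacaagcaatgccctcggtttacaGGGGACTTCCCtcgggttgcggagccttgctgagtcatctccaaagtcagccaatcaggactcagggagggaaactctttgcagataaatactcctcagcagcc
The NF-kB letters were present in 14.9% of all 32851 such promoter stretches. They were found in 1 of the 4 homeostatic genes (Cxcl13) and in 6 of the 9 inducible ones (Cxcl1, Cxcl2, Cxcl3, Cxcl9, Cxcl10 and Ccl20). Of these 6, Cxcl3, Cxcl9 and Ccl20 had uncalled changes with IL-1b in AcP neurons (-0.01, 0.07 and -0.27). Cxcl3, Cxcl9 and Ccl20 were dim there (Cxcl9 averaged 31.6 with IL-1b and 28.6 in controls), so their uncalled changes say little of a response. Ccl2, Cxcl5 and Ccl7, which rose there, had no sequence. A link between the letters and the response was not tested. GC box letters were present in 32.7% of all promoter stretches, in 2 of the 4 homeostatic genes (Cx3cl1 and Cxcl12) and in 1 of the 9 inducible ones (Cxcl2). The TATA box letters TATAAA, on either strand, were present in 12.4% of all promoter stretches, in Cx3cl1 and Cxcl13, and in 4 of the 9 inducible genes. A match describes only the letters, and a window without one says nothing of the factor.

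The first comparison asked whether IL-1b changed the homeostatic chemokines in neurons with each receptor form. It changed none of them past the threshold: 0 of 13 probe sets were called (limma, Benjamini-Hochberg adjusted p under 0.05 over all probe sets) in AcP, AcPb, AcP+AcPb or CD25 neurons. Among all probe sets, 0.244% were called in AcP, 0.00888% in AcPb, 0.195% in AcP+AcPb and 0.00888% in CD25 neurons, so 0 of 13 lies at this background. Of the 52 tests, 6 had an unadjusted p under 0.05, and the lowest adjusted p was 0.462 (limma). Cx3cl1 1441884_x_at and Cxcl16 1449195_s_at are counted here but could not be called, since they were constant once values below 0 were set to 0. Changes are differences of mean log2(intensity + 16), which understates the change of dim probe sets, and 95% intervals are given in brackets.

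Cx3cl1, the membrane-anchored ligand of microglial Cx3cr1, was bright on 2 of its 4 probe sets. Its brightest probe set, 1415803_at, gave 1697, 1967 and 1651 in AcP neurons with IL-1b, against 1542, 1519 and 1665 in AcP controls. The AcP+AcPb neurons with IL-1b had 1628, 1864 and 1844, against 1538, 1517 and 1648 in their controls. In both arms the highest values were those of IL-1b arrays and the groups overlapped. The change was 0.16 ± 0.08 (SE) in AcP neurons [-0.01 to 0.34], with an adjusted p of 0.645, and 0.18 ± 0.08 in AcP+AcPb neurons [0.01 to 0.35], with an adjusted p of 0.536 (limma). In AcPb neurons the arrays had 1237, 1202 and 1238 with IL-1b, against 1144, 1276 and 1272 in controls, a change of -0.00. In CD25 neurons they had 1499.6, 1509 and 1856 with IL-1b, against 1619, 1556 and 1466 in controls, a change of 0.06. One CD25 array with IL-1b, the third, stood above the other two of its group.

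The second Cx3cl1 probe set, 1415804_at, varied more between arrays. It had 656, 557 and 632 in AcP neurons with IL-1b, against 337, 671 and 525 in AcP controls, where the first array was low. The groups overlapped and the change was 0.31 ± 0.18 (SE) [-0.08 to 0.70]. Its changes in the other arms were 0.04 in AcP+AcPb, 0.07 in AcPb and -0.19 in CD25 neurons. The remaining pair of Cx3cl1 probe sets carried little signal: 1421610_at lay below the array median on all 24 arrays, and 1441884_x_at was below 0 on all of them.

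Cxcl16, the other membrane-anchored member and the ligand of Cxcr6, had 1 probe set with signal, 1418718_at. It read 190.0, 107 and 119 in AcP neurons with IL-1b, against 158, 218 and 114 in AcP controls. The AcP+AcPb neurons had 170.2, 135 and 129.8 with IL-1b, against 180.1, 235 and 141 in controls. In both arms the groups overlapped, and the first array of each IL-1b group was its highest. The values gave -0.21 ± 0.22 (SE) in AcP neurons [-0.67 to 0.24] and -0.31 ± 0.22 in AcP+AcPb neurons [-0.76 to 0.15]. In AcPb neurons the arrays had 144, 112 and 122 with IL-1b, against 141, 134 and 153 in controls (-0.17). In CD25 neurons they had 166, 119.6 and 159, against 115, 114 and 124 (0.29). The other Cxcl16 probe set, 1449195_s_at, was below 0 on all 24 arrays, so nothing can be said from it.

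Cxcl12, the secreted guidance chemokine read by Cxcr4, had closely matching arrays within the 3 arms that carried a receptor form. Its brightest probe set, 1448823_at, had 303, 287 and 306 in AcP neurons with IL-1b, against 266, 311 and 299 in AcP controls. In AcP+AcPb neurons it had 301, 287 and 292 with IL-1b, against 303, 303 and 283 in controls. The groups overlapped in both arms, with changes of 0.03 [-0.15 to 0.22] in AcP and -0.01 [-0.20 to 0.17] in AcP+AcPb neurons. In AcPb neurons all arrays with IL-1b, at 367, 362 and 373, lay above all controls, at 351, 336 and 344, and the change was 0.09 [-0.10 to 0.28]. In CD25 neurons the arrays with IL-1b had 506, 551 and 713, against 603, 717 and 629.9 in controls (-0.15 [-0.34 to 0.04]). A dim second probe set, 1417574_at, between 17.5 and 49.1 on all arrays, had uncalled changes of opposite sign in the arms with AcP: -0.36 ± 0.16 (SE, adjusted p = 0.598, limma) in AcP and 0.40 ± 0.16 (adjusted p = 0.462) in AcP+AcPb neurons. The difference between these changes, 0.76 ± 0.23, had an adjusted p of 0.702 (limma).

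Cxcl13, the ligand of Cxcr5 that draws B cells into lymphoid follicles, was dim. Its brighter probe set, 1448859_at, lay above the array median on 17 of 24 arrays. In AcPb neurons it had 55.2, 104 and 116 with IL-1b, against 22.9, 60.6 and 60.0 in controls, and the groups overlapped. The change there was 0.77 ± 0.33 (SE) [0.08 to 1.46], with an unadjusted p of 0.0312 and an adjusted p of 0.485 (limma). In the other arms it averaged 82.3 ± 28.6 with IL-1b against 95.6 ± 18.9 in AcP controls, 77.9 ± 30.4 against 71.9 ± 21.8 in AcP+AcPb controls, and 56.3 ± 13.5 against 79.1 ± 20.2 in CD25 controls (SD, n = 3 each). The second probe set, 1417851_at, was below the array median on every array, and its changes ran from -0.09 in AcP+AcPb to 0.53 in CD25 neurons. There it had 35.5, 33.2 and 31.1 with IL-1b, against 26.9, 11.9 and 16.9 in controls, with no overlap and an adjusted p of 0.896 (limma).

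Cxcl14, a secreted chemokine that attracts myeloid cells and is made by some cortical interneurons, had 2 bright probe sets. On 1418456_a_at the AcP neurons had 408, 355 and 428 with IL-1b, against 449, 369.7 and 450.3 in controls. The AcP+AcPb neurons had 460.3, 349 and 386 with IL-1b, against 382, 433 and 425 in controls. The AcPb neurons had 304, 419 and 410.2 with IL-1b, against 306, 469 and 369 in controls. All groups overlapped with their controls, CD25 neurons included (396, 404 and 458 with IL-1b, against 394, 432 and 439), and the changes in the 4 arms were -0.09 in AcP [-0.39 to 0.22], -0.06 in AcP+AcPb, -0.01 in AcPb and -0.01 in CD25 neurons. On 1418457_at the AcP+AcPb neurons had 222, 234 and 239.9 with IL-1b, against 239.6, 279.9 and 308 in controls, values that overlapped at a single array. The difference was -0.23 ± 0.10 (SE) [-0.44 to -0.01], with an adjusted p of 0.526 (limma), and the other arms had differences of -0.05 in AcP, -0.03 in AcPb and -0.06 in CD25 neurons.

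Counted over all members, the arrays with IL-1b and the controls did not overlap for 0 of 13 probe sets in AcP, 2 in AcPb (Cxcl12 1448823_at and Cxcl13 1417851_at, both higher), 1 in AcP+AcPb (Cx3cl1 1441884_x_at, below 0 on every array) and 2 in CD25 neurons (Cxcl13 1417851_at higher, Cxcl12 1439084_at lower). Such a gap was found for 10.1%, 19.1%, 15.1% and 13.2% of all probe sets in the same 4 arms, in that order. The plot of the brightest probe sets shows the groups beside each other for each gene.

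**Figure D1:**
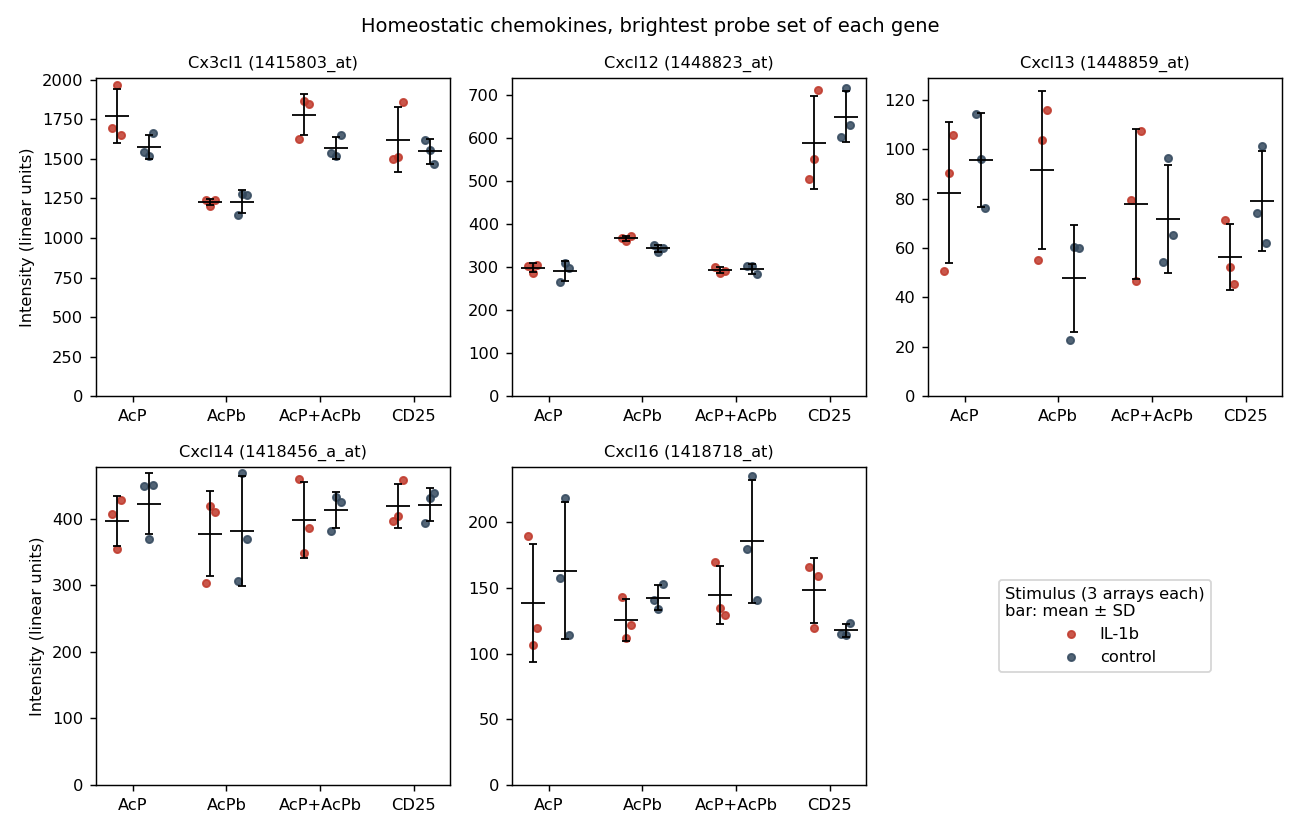
Linear intensity (vertical axes, arbitrary units) of the brightest probe set of each homeostatic chemokine in the 4 arms, with IL-1b left of control, 1 point per array and bars at the mean ± SD (n = 3). Cx3cl1 sits between 1144 and 1276 on all AcPb arrays and at 1466 or above on the others, and Cxcl12 at 506 or above on CD25 arrays and at 373 or below on the others, and IL-1b arrays overlap their controls in every pair but Cxcl12 in AcPb neurons.

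In the same arrays some inducible chemokines rose. In AcP neurons 6 of 16 did so and 0 fell on their brightest probe sets, where 0.189% of all probe sets rose. Cxcl10, which draws activated T cells through Cxcr3, had 2348, 2831 and 2356 with IL-1b, against -2.38, 13.7 and 29.2 in controls, a change of 6.50 ± 0.33 (SE, adjusted p = 7.08e-09, limma). Cxcl1, a neutrophil attractant, had 3118, 4005 and 3263 with IL-1b, against 156, 146 and 159.8 in controls (4.35 ± 0.25, adjusted p = 5.01e-08). Both groups were far apart on every array. Ccl2, the main monocyte attractant, averaged 797.8 with IL-1b and 60.3 in controls (3.41 ± 0.21), and Cxcl2 averaged 193 and 13.2 (2.85 ± 0.24). Cxcl5 rose by 1.83 ± 0.21, and Ccl7, a monocyte attractant, by 1.72 ± 0.31. The 10 others, Cxcl3, Cxcl9, Cxcl11, Ccl3, Ccl4, Ccl5, Ccl8, Ccl11, Ccl12 and Ccl20, did not pass the test. Of these, Ccl3 and Ccl12 read below 0 on all 24 arrays and became constant when set to 0. They count among the 16 but could not be called in any arm, so their response is unknown. In AcP neurons Ccl5 averaged -9.30 with IL-1b and -7.59 in controls, Ccl11 -7.68 and -4.61, and Ccl20 -12.3 and -5.16. Cxcl3 averaged 6.07 and 6.79, Cxcl11 14.95 and 10.23, and Cxcl9 31.6 and 28.6. At such levels an uncalled change does not show a lack of response.

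In AcP+AcPb neurons 5 of 16 inducible chemokines rose, namely Cxcl10 (5.22), Cxcl1 (3.90), Ccl2 (3.24), Cxcl2 (2.55) and Cxcl5 (1.67), where 0.147% of all probe sets rose, and Ccl7 had 1.07 with an adjusted p of 0.233 (limma). In AcPb neurons 0 of 16 were called, with changes of -0.28 to 0.76, and in CD25 neurons 0 of 16, with -0.44 to 0.39. The median change of the list was 0.03 in AcP and 0.20 in AcP+AcPb neurons, against 0 over all probe sets in each, since the changes of most of the list did not pass the test. These medians include Ccl3 and Ccl12, whose change is 0 because they were constant. The brightest probe sets of the 5 homeostatic genes spanned -0.21 to 0.16 in AcP neurons (median -0.09) and -0.31 to 0.18 in AcP+AcPb neurons (median -0.01). The 2 classes were not tested against each other.

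**Figure D2:**
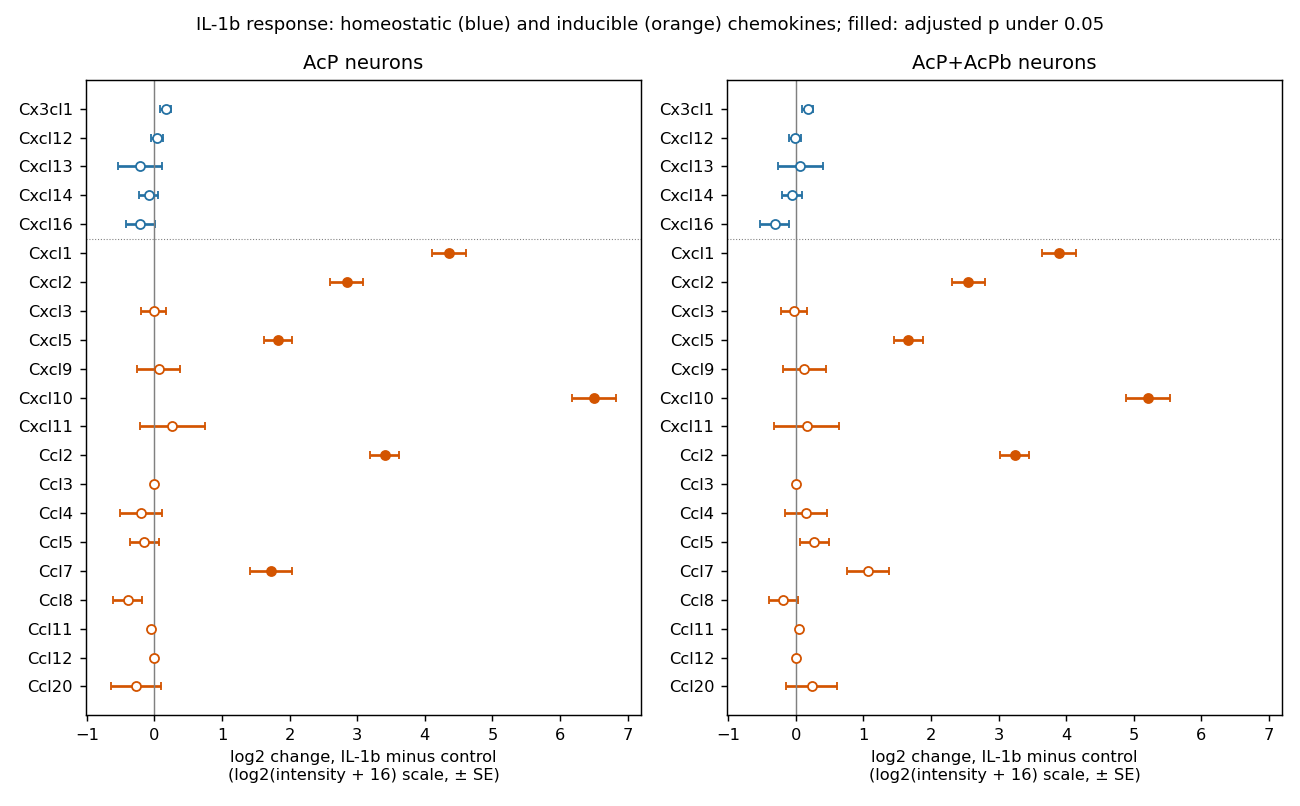
Change with IL-1b (horizontal axis, difference of mean log2(intensity + 16), bars ± SE) of 5 homeostatic and 16 inducible chemokines, brightest probe set each, in AcP and AcP+AcPb neurons; filled points passed an adjusted p of 0.05. The homeostatic genes lie between -0.31 and 0.18 and are all open, whereas 6 inducible genes in AcP and 5 in AcP+AcPb neurons are filled, up to 6.50 for Cxcl10.

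Whether the response itself differed between arms was tested as a difference of changes. None of the 13 homeostatic probe sets was called: 0 for AcP minus CD25 (0.124% of all probe sets called), 0 for AcP+AcPb minus CD25 (0.109%), 0 for AcPb minus AcP (0.111%) and 0 for AcP+AcPb minus AcP (0.00444%). An unadjusted p under 0.05 was found for 1, 0, 1 and 1 of the 13, and the lowest adjusted p was 0.595 (limma). For Cxcl12 the response in AcP neurons minus that in CD25 neurons was 0.18 ± 0.13 (SE) [-0.09 to 0.45], and for Cx3cl1 0.10 ± 0.12 [-0.14 to 0.35]. Cxcl16 was less tightly bounded, at -0.50 ± 0.30 [-1.14 to 0.15]. Of the 16 inducible chemokines 5 had a higher response in AcP than in CD25 neurons and 5 in AcP+AcPb than in CD25 neurons, 5 a lower one in AcPb than in AcP neurons, and 0 differed between AcP+AcPb and AcP neurons.

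The receptors and proteases of the homeostatic chemokines were also uncalled after IL-1b, with 0 of 7 in each arm. Ackr3, the atypical receptor that takes up Cxcl12, had the largest change in AcP neurons. It averaged 287.7 with IL-1b and 229.5 in controls (0.31 ± 0.09 SE, adjusted p = 0.273, limma). In AcP+AcPb neurons it averaged 299.8 with IL-1b and 228.4 in controls (0.37 ± 0.09, adjusted p = 0.158). In AcPb neurons Ackr3 averaged 287.7 with IL-1b and 246.6 in controls (0.21 ± 0.09, adjusted p = 0.521, limma). The groups did not overlap in any of these arms. In CD25 neurons the change was -0.09. The response in AcPb minus that in AcP neurons was -0.10 ± 0.13 and uncalled. Cxcr4, the signalling receptor of Cxcl12, averaged 121.2 with IL-1b and 128.6 in AcP controls. Cx3cr1 averaged 3.66 and -2.41, a change of 0.31 close to that of Ackr3 but at a very low level. Among the others in AcP neurons, Cxcr5 had -0.17, Cxcr6 0.14, Adam17 0.04 and Adam10 0.03, all uncalled.

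The second comparison set the unstimulated neurons of each receptor arm against unstimulated CD25 neurons, and here Cxcl12 was lower. Its brightest probe set fell below CD25 controls in all 3 arms, with means of 292 in AcP controls (266 to 311), 344 in AcPb controls (336 to 351) and 296 in AcP+AcPb controls (283 to 303), against 649.8 in CD25 controls (603 to 717), each the mean and range of 3 arrays. Each array of the receptor arms lay below each CD25 control. The difference was -1.11 ± 0.09 (SE) in AcP [-1.30 to -0.92], -0.88 ± 0.09 in AcPb [-1.07 to -0.70] and -1.09 ± 0.09 in AcP+AcPb neurons [-1.28 to -0.90], with adjusted p of 1.00e-06, 2.17e-05 and 1.70e-06 (limma). Of the 13 homeostatic probe sets, 1 was called in AcP (lower), 2 in AcPb (both lower) and 3 in AcP+AcPb controls (1 lower, 2 higher). A share of 7.07% of all probe sets was called in AcP against CD25 controls (4.21% lower, 2.86% higher), 3.28% in AcPb (2.38% lower, 0.897% higher) and 9.7% in AcP+AcPb (6.15% lower, 3.55% higher). The CD25 controls were thus set apart by many probe sets besides Cxcl12, and the 3 comparisons share them. The other Cxcl12 probe sets were uncalled: 1417574_at had differences of 0.38, 0.30 and -0.08 and 1439084_at of -0.56, -1.17 and -0.36 in AcP, AcPb and AcP+AcPb controls, and 1439084_at was below 0 on 15 of 24 arrays.

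Across all 8 groups the Cxcl12 levels lay together by arm. The 6 AcP arrays ran from 266 to 311, the 6 AcPb arrays from 336 to 373 and the 6 AcP+AcPb arrays from 283 to 303, against 506 to 717 on the 6 CD25 arrays. CD25 controls and CD25 neurons with IL-1b were the highest groups and overlapped. The AcPb neurons with IL-1b came next and overlapped neither neighbour in the order, followed by AcPb controls, and the 4 AcP and AcP+AcPb groups came last, at means of 292 to 299 that overlapped. The 3 genes whose log2 values followed Cxcl12 most closely over the 24 arrays, of 9095 genes above the median level, were Dap, Emp1 and Gsta4 (Pearson r 0.97 for each). Emp1, which encodes a membrane protein of epithelial cells, averaged 85.7 in AcP, 138 in AcPb and 105 in AcP+AcPb controls, against 487 in CD25 controls. These points share arrays and arms, so r is a description. Emp1 was picked for following Cxcl12 over these same arrays, so its levels are not a separate result.

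Among the inducible chemokines, 2 of 16 were called in each comparison, both lower: Cxcl10 averaged 13.5 in AcP, 12.5 in AcPb and 54.3 in AcP+AcPb controls, against 198.6 in CD25 controls. Cxcl5 averaged 8.18, 6.31 and 13.2 in the same order, against 40.3 in CD25 controls.

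Some markers of mural cells and fibroblasts were also lower than in CD25 controls. The summed intensity of 10 mural cell and fibroblast markers was 1147 to 1340 in AcP, 1415 to 1624 in AcPb and 1230 to 1569 in AcP+AcPb controls, against 2206 to 2928 in CD25 controls. Acta2, the smooth muscle actin, made up most of this gap, at 586 to 699 in AcP, 706 to 1001 in AcPb and 656 to 1022 in AcP+AcPb controls, against 1383 to 2076 in CD25 controls. Without it, a sum added after the data were seen, the 9 other markers came to 562 to 641 in AcP, 623 to 709 in AcPb and 547 to 615 in AcP+AcPb controls, against 801 to 852 in CD25 controls. Of these markers 5 of 10 were lower in AcP (Rgs5, Acta2, Col3a1, Foxc1 and Pdgfrl), 2 in AcPb (Acta2 and Foxc1) and 6 in AcP+AcPb controls (those 5 and Col1a1), and 0 were higher. Acta2 had -1.42 ± 0.22 (SE) in AcP controls, with an adjusted p of 0.000556 (limma). Foxc1, a transcription factor of meningeal and mural cells, had group means at or below 0 in AcP and AcP+AcPb controls. Pdgfrb, Dcn, Lum and Col1a2 were uncalled in all 3 comparisons, with values up to 0.45 for Dcn in AcP and 0.48 for Pdgfrb in AcPb controls. With IL-1b the AcPb arrays had a marker sum of 1726 to 2266, against 1415 to 1624 in AcPb controls, and so overlapped the 2011 to 2764 of CD25 arrays with IL-1b, while their Cxcl12 values of 362 to 373 lay below all CD25 arrays.

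The other marker lists were mixed. Gfap, the filament protein of astrocytes, had -1.98 in AcP and -1.73 in AcPb controls (adjusted p = 0.000442 and 0.00282, limma), and -0.49 in AcP+AcPb controls (adjusted p = 0.353). Of the 10 astrocyte markers, 2 were higher and 3 lower in AcP, 0 and 2 in AcPb, and 3 and 1 in AcP+AcPb controls. Of the 10 interneuron markers, the Dlx genes Dlx1, Dlx2 and Dlx5 with Npy were lower in AcP and AcP+AcPb controls, Dlx2 and Npy in AcPb controls, and Gad1 was higher in AcP+AcPb controls. Of the 8 oligodendrocyte lineage markers on the array, Olig1 was higher in AcP and AcPb controls and Mbp lower in AcP+AcPb controls. Neuron, microglia and endothelial lists had 0 called members in each of the 3 comparisons, and after IL-1b 0 markers of any list were called in any arm. The part of these cells in the Cxcl12 difference was not tested. In RNA from whole cultures, fewer cells of a type and less RNA per cell cannot be told apart.

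**Figure D3:**
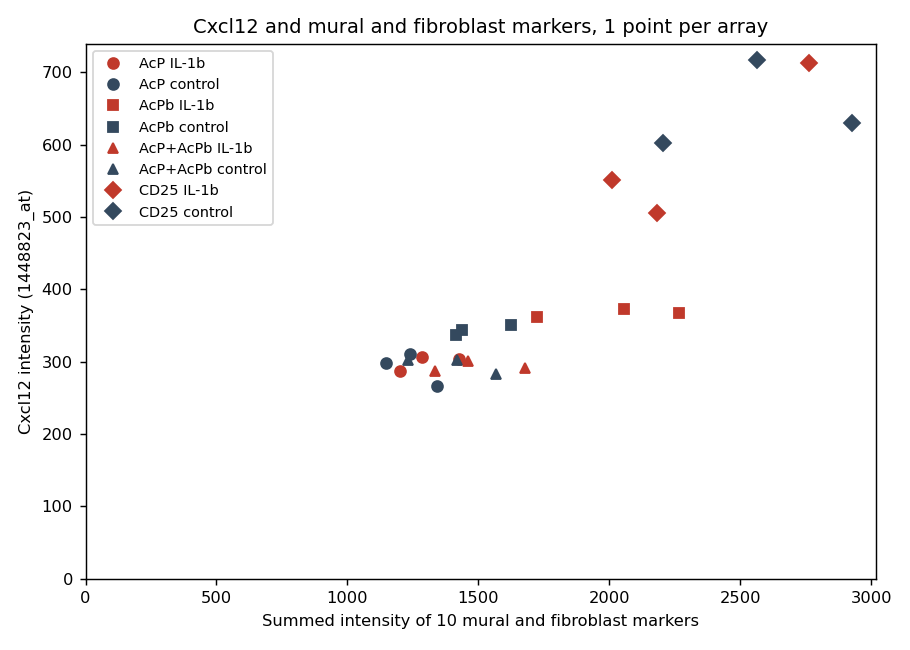
Cxcl12 intensity (1448823_at, vertical axis) against the summed intensity of 10 mural and fibroblast markers (horizontal axis), 1 point per array, with shape for the arm and colour for the stimulus. The 6 CD25 arrays lie at 506 to 717 for Cxcl12 and 2011 to 2928 for the markers, and the AcPb arrays with IL-1b reach a marker sum of 2266 with Cxcl12 at 373 or below.

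Cx3cl1 was lower in AcPb neurons. On 1415803_at the AcPb controls averaged 1230.5 ± 75.4, against 1547 ± 77.0 in CD25 controls (SD, n = 3 each), and the groups did not overlap. The difference was -0.33 ± 0.08 (SE) [-0.50 to -0.15], with an adjusted p of 0.0353 (limma). This call was lost when any 1 of the 6 arrays compared was left out, with differences of -0.36 to -0.28 and adjusted p of 0.0535 to 0.164. The second bright probe set, 1415804_at, had -0.36 ± 0.18 with an adjusted p of 0.390. Over both stimuli, the 6 AcPb arrays of 1415803_at ran from 1144 to 1276, against 1466 to 1967 on the 18 other arrays, whose groups overlapped their neighbours in the order of levels. AcP controls (0.03) and AcP+AcPb controls (0.02) were uncalled against CD25 controls.

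The 10 neuron markers had differences of -0.35 to 0.17 in AcPb against CD25 controls, and 0 were called. The genes that followed Cx3cl1 most closely over the 24 arrays, of 9095 compared, were Crym (r = 0.88), Ppp1r3c (0.88) and Kcna1 (0.83). Crym, which encodes a thyroid hormone binding protein of cortical neurons, averaged 251 in AcPb controls, against 463 in CD25 controls. It was picked for following Cx3cl1 over these same arrays, so its lower level in AcPb controls is not a separate result.

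Cxcl13 and Cxcl14 were each called on 1 of their 2 probe sets, in AcP+AcPb against CD25 controls, where the arm and the array code cannot be told apart. Cxcl14 on 1418457_at had 239.6, 279.9 and 308 in AcP+AcPb controls, against 231, 202 and 196 in CD25 controls, with no overlap. The difference was 0.37 ± 0.10 (SE) [0.15 to 0.58], with an adjusted p of 0.0307 (limma), but its brighter probe set had -0.03. Cxcl13 on 1417851_at had 44.7, 59.6 and 32.2, against 26.9, 11.9 and 16.9 in CD25 controls, also with no overlap. The difference was 0.83 ± 0.24, with an adjusted p of 0.0379 (limma), and its brighter probe set had -0.12. The Cxcl14 call was lost without array 2 or array 3 of either group (0.29 to 0.35, adjusted p 0.0973 to 0.119) and with array medians centred (0.32, adjusted p = 0.0849, limma). The Cxcl13 call was lost without CD25 control array 2 or 3 or AcP+AcPb control array 1 or 2 (0.67 to 0.83, adjusted p 0.0834 to 0.177).

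Cxcl16 on 1418718_at had 180.1, 235 and 141 in AcP+AcPb controls, against 115, 114 and 124 in CD25 controls, a difference of 0.57 ± 0.22 (SE) that was uncalled (adjusted p = 0.114, limma). All 3 AcP+AcPb arrays were above all CD25 arrays. The second Cx3cl1 probe set, 1415804_at, likewise had higher AcP+AcPb arrays without overlap (0.42 ± 0.18, adjusted p = 0.168). Across the 8 groups, Cxcl13, Cxcl14 and Cxcl16 on their brightest probe sets had no group that was set off from its neighbour in the order of levels.

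Arrays of the groups did not overlap for 1 of the 13 probe sets in AcP, 8 in AcPb (3 higher and 5 lower) and 6 in AcP+AcPb against CD25 controls (4 higher and 2 lower). Over all probe sets the share was 20.6% in AcP (9.71% higher, 10.9% lower), 24.7% in AcPb (10.5% higher, 14.3% lower) and 32.8% in AcP+AcPb (14.6% higher, 18.2% lower). The 8 in AcPb are not 8 genes, and probe sets of the same gene disagreed. Cxcl12 was higher on 1417574_at and lower on 1448823_at and 1439084_at, and Cxcl13 higher on 1417851_at and lower on 1448859_at. The 6 in AcP+AcPb include Cx3cl1 1441884_x_at, which was below 0 on every array. Of the 7 receptors and proteases, 0 were called in AcP or AcPb controls and 2 in AcP+AcPb controls. There Cxcr4 averaged 115.6, against 166.8 in CD25 controls (-0.48 ± 0.14, adjusted p = 0.0367, limma), and Cxcr5, the Cxcl13 receptor, averaged 35.1, against 15.6 (0.68 ± 0.18, adjusted p = 0.0228).

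**Figure D4:**
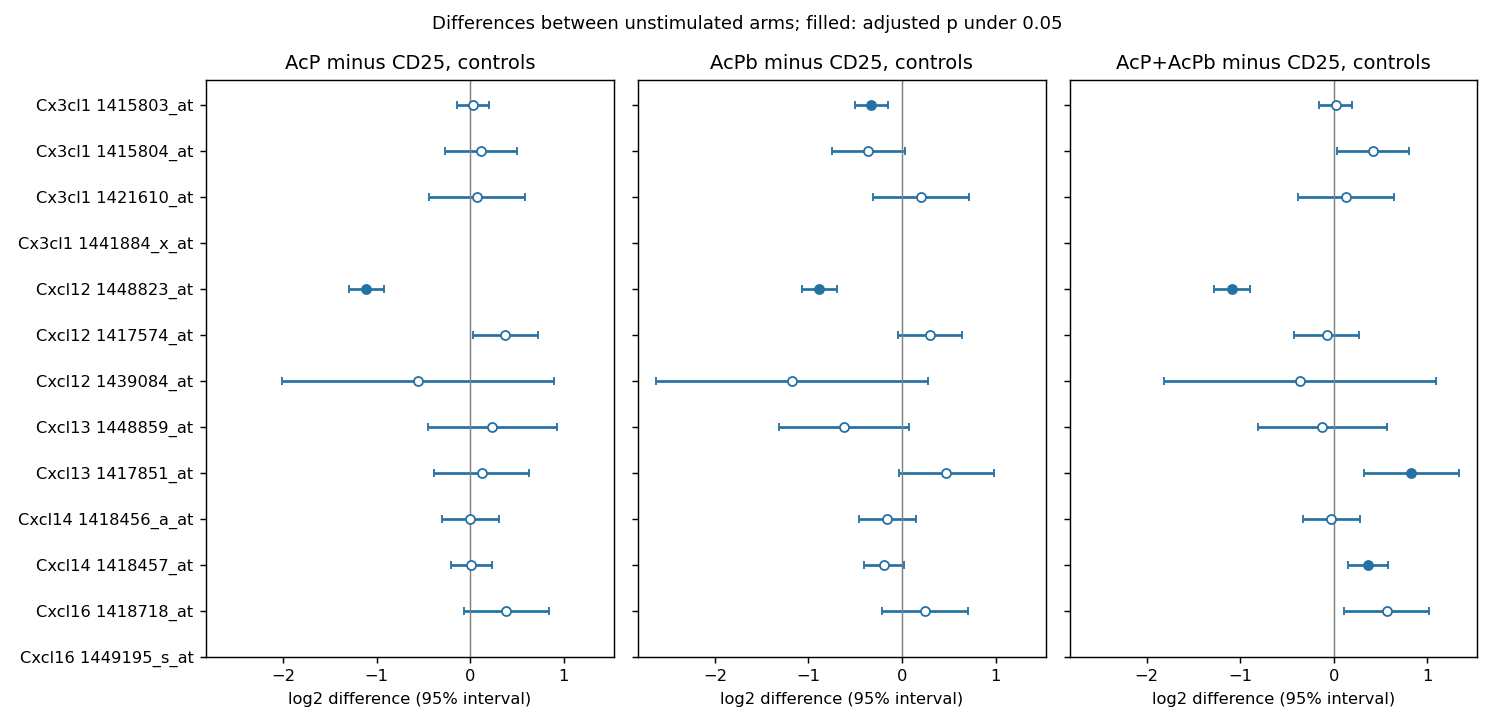
Difference of mean log2(intensity + 16) between unstimulated receptor arms and unstimulated CD25 neurons (horizontal axes, bars are 95% intervals) for the homeostatic probe sets; filled points passed an adjusted p of 0.05, and the 2 probe sets below 0 on all arrays have no point. Cxcl12 1448823_at lies at -1.11, -0.88 and -1.09, while every other filled point is within 0.83 of 0.

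**Figure D5:**
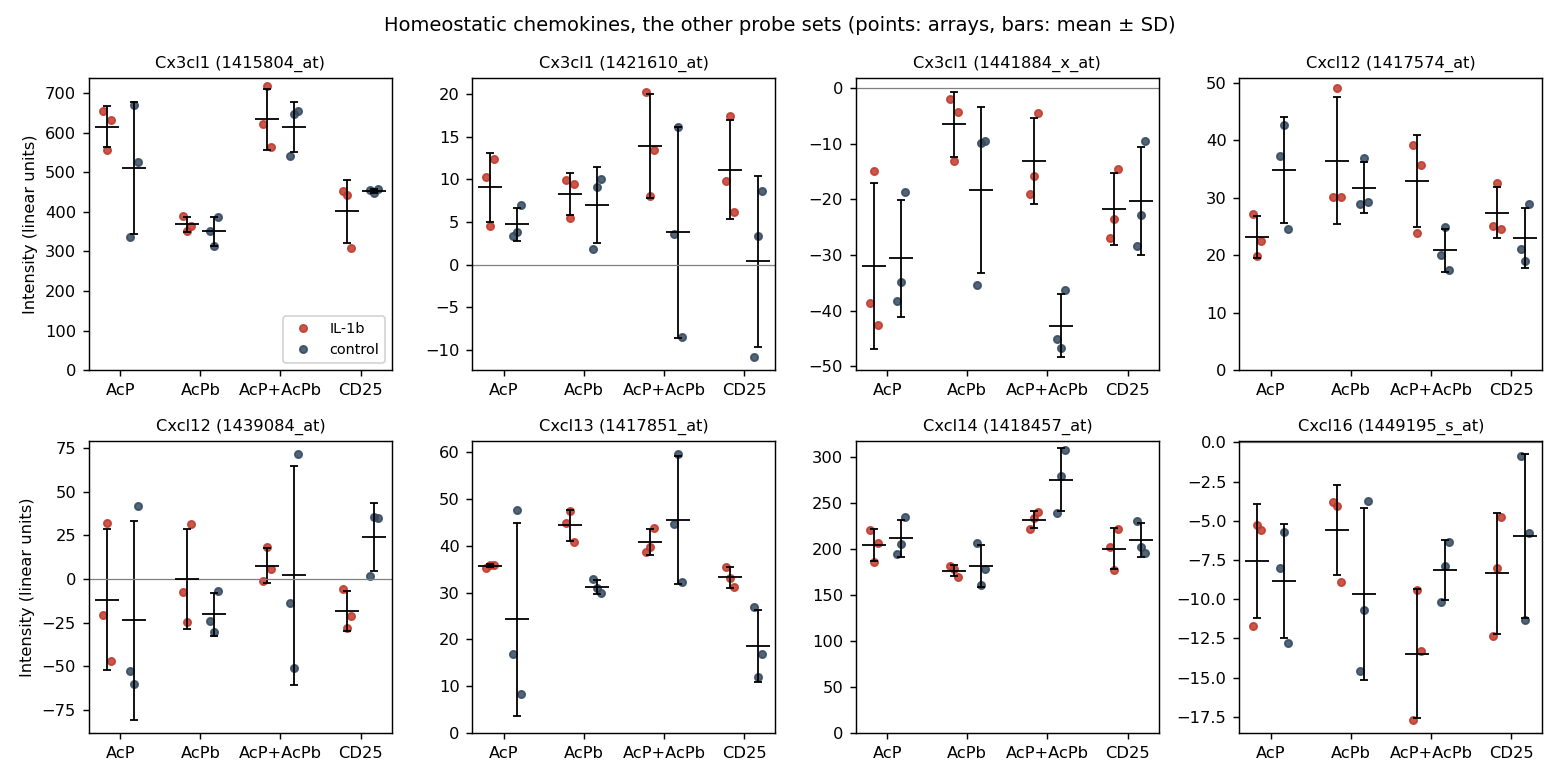
Linear intensity (vertical axes, arbitrary units) of the 8 other homeostatic probe sets in the 4 arms, with IL-1b left of control, 1 point per array and bars at the mean ± SD (n = 3). Only Cx3cl1 1415804_at and Cxcl14 1418457_at lie above the median of their array on all 24 arrays, and Cx3cl1 1441884_x_at and Cxcl16 1449195_s_at are below 0 throughout.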

How the data were processed

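The deposited values are linear intensity per probe set, from biotin-labelled RNA (Eberwine labelling, per the labels' protocols). No source used here gives the authors' summary or scaling of probe sets. The 40 control probe sets were left out, which left 45037. Of these, 34945 had 1 gene symbol in the platform table, 932 several and 9160 none. Groups came from the sample titles. Values below 0 were set to 0 and log2(value + 16) was fitted with limma 3.58.1 (R 4.3.3) on all 24 arrays with 8 group means and no filter on dim probe sets, with Benjamini-Hochberg adjustment within each of 11 comparisons and a threshold of 0.05. The script was tested on simulated data. All 13 member probe sets were tested, and 10 would pass a filter on dim values. Cx3cl1 1441884_x_at and Cxcl16 1449195_s_at, below 0 on all arrays, became constant when set to 0, so this fit could not call them. The number of arrays limits the precision. With 3 arrays against 3, an exact permutation test could not go below p = 0.1, so the fit to all 24 arrays was used. It takes 1 variance per probe set over the 8 groups, with 16 residual degrees of freedom. Sharing across probe sets added only 0.65. Equal spread in all groups is assumed. For Cxcl12 1448823_at the SD was 109 in CD25 and 5.82 in AcPb neurons with IL-1b (intensity units). All members are named, with list genes called or among the 4 largest changes in the AcP response. Each gene of a list was taken on its brightest probe set. Members and lists were chosen with earlier results of these data known. Promoter sequences are RefSeq's, build GRCm38.p6.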

Additional observations from a re-analysis of the deposited data

How the results depend on the processing

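The counts of called homeostatic probe sets were recomputed under 11 other settings of the processing and with each array left out. After IL-1b, and for the differences between responses, the count was 0 in each comparison under all of them. For AcP against CD25 controls it was 1 throughout. For AcPb against CD25 controls it was 2, and it was 1 with a generalised log, with array medians centred, with only the arrays compared in the fit, and without any 1 array (lowest 1, highest 1). For AcP+AcPb against CD25 controls it was 3, and it was 1 with the brightest probe set per gene (of 5), 1 with only the arrays compared, 2 with array medians centred, and 1 to 3 without 1 array. The fit uses only some arrays or probe sets in several of these settings. For the others the cause was not tested. Cxcl12 was called in all alternatives, at -1.16 to -1.002 in AcP, -0.94 to -0.80 in AcPb and -1.14 to -0.98 in AcP+AcPb controls. Among single probe sets and comparisons, 2589 kept their side of the threshold and 20 lost the call. Direction was compared only where a probe set was called, and no call reversed. The 2589 include the probe sets below 0 on all arrays, which were constant in the main fit. Counts over all probe sets moved by more: they ran from 0 to 24 (4 as reported) for the response of CD25, 6 to 356 (110) of AcP, 2 to 130 (4) of AcPb and 11 to 206 (88) of AcP+AcPb neurons. For response differences they ran from 33 to 278 (56) for AcP minus CD25, 24 to 109 (49) for AcP+AcPb minus CD25, 39 to 74 (50) for AcPb minus AcP and 0 to 50 (2) for AcP+AcPb minus AcP. Against CD25 controls they ran from 405 to 5146 (3185) for AcP, 867 to 2852 (1476) for AcPb and 2331 to 5462 (4369) for AcP+AcPb controls.

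With the replicate number as a block, the count of called homeostatic probe sets was 0 in each response and each response difference, 1 in AcP, 2 in AcPb and 3 in AcP+AcPb against CD25 controls, as without the block. The labels do not say whether the numbers pair the samples. Of 12 same-numbered pairs within an arm, 1 had deviations correlated above 0.1 (range -0.09 to 0.15), which cannot settle it. The array code was fitted as a block for 22B, which only AcP+AcPb controls carry. Changes among CD25, AcP and AcPb neurons cannot move under it, so their unmoved counts are no check. The AcP+AcPb response, and the differences that use it, then rest on 1 control array, so their counts there say little. AcP+AcPb against CD25 controls could not be fitted that way. Probe sets below 0 and the dim ones of Cxcl12 and Cxcl13 limit what can be said of a change.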

Other observations

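The genes whose log2 values followed the other homeostatic chemokines most closely over the 24 arrays were less alike to them than those of Cxcl12 or Cx3cl1. For Cxcl16 they were Slc2a4 (Pearson r = 0.82), which encodes an insulin-regulated glucose transporter, Ell (0.82) and Cyb561a3 (0.80). For Cxcl14 they were Zfr2 (0.71), Fam171a1 (0.67) and Serpina3i (0.62). For Cxcl13 they were Dync1i1 (0.70), a chain of the dynein motor, Cct4 (0.63) and Fbxl2 (0.62). The arrays share arms and stimuli, so these values are a description.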
